A study of Homo sapiens with 18 samples.

Results

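The response to tumour necrosis factor (TNF) was measured in HCT116 cells labelled as a knock-in of IκBα in its WT form, called WT here. HCT116 is a human colorectal carcinoma line of epithelial origin. The comparison sets 3 WT libraries treated with hTNFα at 0.1 µg/mL for 40 min against 3 untreated WT libraries, chosen by their labels. These are 6 of the 18 libraries of the series, and all 18 entered the count filter and the estimate of spread. The remaining 12 libraries come from knock-ins labelled N108 mutant and M3 mutant, each treated in the same way and untreated with 3 libraries per group. Of 61552 genes in the table of read counts, 19038 passed the count filter and were tested. All 6 libraries carry the knock-in, so unedited HCT116 cells are not part of the comparison. The labels do not say whether a knock-in line is a clone or a pool, nor whether replicates were separate cultures. Any effect of the line therefore cannot be told apart from that of its genotype, and the p-values then reflect how far these libraries scatter, a scatter that may be technical.

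TNF binds the receptor TNFR1, which assembles the adaptor TRADD, the kinase RIPK1 and ubiquitin ligases such as the cIAP proteins at the membrane. The kinases TAK1 and IKK are activated there, IKK marks IκBα for degradation, and NF-κB dimers such as RELA with NFKB1 enter the nucleus and bind κB sites in promoters and enhancers. The same receptor complex signals through the MAP kinases JNK and p38 to AP-1 factors. In epithelial cells of the gut, early targets are known to include chemokines that attract neutrophils and inhibitors that close the pathway again, among them IκBα itself and A20. A sample at 40 min falls in the early phase, when RNAs with short lives can change most.

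TNF was followed within 40 min by a strong rise of a small group of genes and by shallow changes of many more. The test called 987 genes, 5.18% of those tested, at an adjusted p under 0.05 in edgeR's quasi-likelihood test. Of these 387 were higher with TNF (2.03% of genes tested) and 600 were lower (3.15%). Only 63 of the genes called were at least 2-fold higher (0.331%), 26 at least 4-fold and 18 at least 8-fold, whereas 36 were at least 2-fold lower (0.189%) and 1 at least 4-fold lower. That gene, AL031598.1, named after its values were seen, has a clone name only and averaged 0.0386 CPM (counts scaled to a library of 1e+06) with TNF and 0.215 CPM untreated. The counts depended on single libraries. Without TNF library 3 the test called 432 genes, 181 higher and 251 lower, and without untreated library 2 it called 562 genes, 213 higher and 349 lower. Without untreated library 3 the number called higher was 238. The strong rise did not depend on them in this way, since 55 of the 63 genes at least 2-fold higher were still called without TNF library 3 and 56 without untreated library 2.

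**Figure D1:**
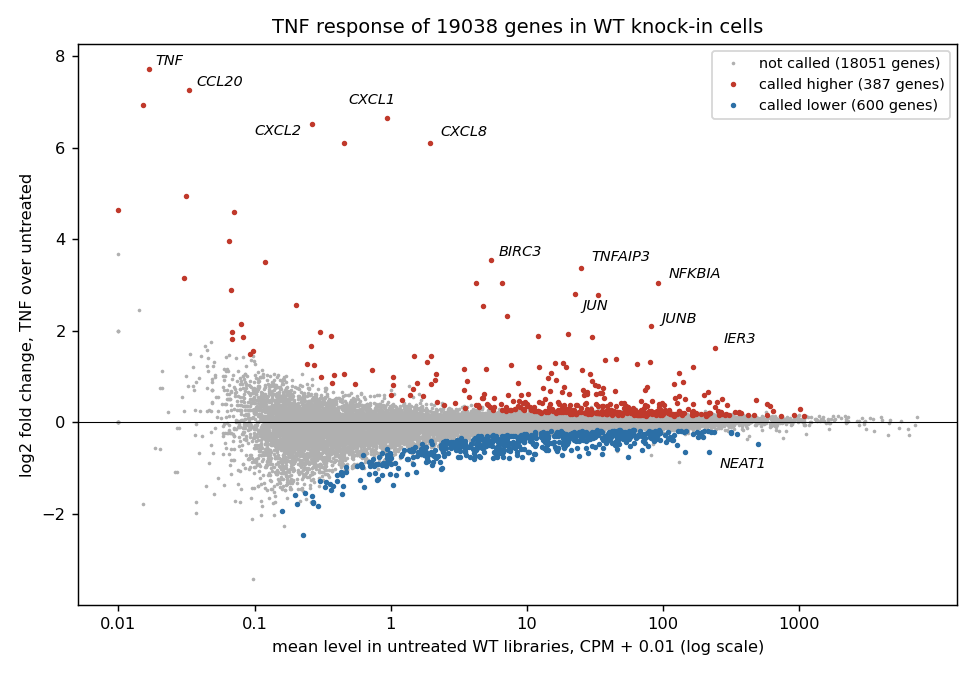
Log2 fold change of TNF over untreated against the mean level in untreated WT libraries (CPM plus 0.01, log scale), with 1 point per gene tested. The genes that rose most stand at the upper left, where untreated levels are low, and the 600 genes called lower form a shallow band under 0. Small rises in genes with few reads cannot be called at this depth, so rises at low and high levels are not compared. Of the 63 genes at least 2-fold higher, 13 passed the count filter only through libraries treated with TNF.

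Promoter stretches of 7 raised genes are shown, chosen because they hold letters that NF-κB is known to bind. Each line gives the 100 bases that run from 120 to 21 bases before the annotated start of the gene, 5′ to 3′ on the gene's strand, from RefSeq on GRCh38.p14. Capitals mark matches, on either strand, to GGG followed by any 3 bases and TTCC, or to the shorter GGAANTTCC, joined where matches overlap. This is the reference sequence and was not read from the edited cells.
CXCL1: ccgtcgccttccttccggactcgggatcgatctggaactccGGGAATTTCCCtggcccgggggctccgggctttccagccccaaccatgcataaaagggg
CXCL2: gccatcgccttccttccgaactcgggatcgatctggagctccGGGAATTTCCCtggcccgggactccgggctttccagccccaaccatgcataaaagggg
CXCL3: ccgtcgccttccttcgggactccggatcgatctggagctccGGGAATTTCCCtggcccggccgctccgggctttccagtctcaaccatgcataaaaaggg
CXCL8: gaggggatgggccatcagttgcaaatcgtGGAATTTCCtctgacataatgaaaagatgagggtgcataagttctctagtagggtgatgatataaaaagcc
CCL20: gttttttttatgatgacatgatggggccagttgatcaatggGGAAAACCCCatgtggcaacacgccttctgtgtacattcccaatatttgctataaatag
NFKBIA: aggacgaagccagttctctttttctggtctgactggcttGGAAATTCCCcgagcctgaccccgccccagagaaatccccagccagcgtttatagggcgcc
TNFAIP3: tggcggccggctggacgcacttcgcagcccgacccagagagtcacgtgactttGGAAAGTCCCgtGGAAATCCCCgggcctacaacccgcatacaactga

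The stretches lie at chr4:73869273-73869372 on the plus strand for CXCL1, at chr4:74099216-74099315 on the minus strand for CXCL2 and at chr4:74038710-74038809 on the minus strand for CXCL3. That of CXCL8 lies at chr4:73740449-73740548 on the plus strand and that of CCL20 at chr2:227813722-227813821 on the plus strand. NFKBIA is represented by chr14:35404770-35404869 on the minus strand and TNFAIP3 by chr6:137867139-137867238 on the plus strand. In the 60 bases around their match, CXCL1 and CXCL2 were identical at 57 bases, CXCL1 and CXCL3 at 56, and CXCL2 and CXCL3 at 55. CXCL8, CXCL1, CXCL3 and CXCL2 lie in that order along chromosome 4, and no other tested gene lies between CXCL8 and CXCL2.

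Such matches were more common among the genes that rose strongly than among all genes, counted over protein-coding genes whose RefSeq window (250 bases before to 50 after the start) was at hand. A κB match stood in 14 of 22 genes at least 4-fold higher (63.6%) and in 21 of 46 genes at least 2-fold higher (45.7%). Of the genes called higher by less than 2-fold, 42 of 256 held one (16.4%), and of all genes tested 1197 of 11133 (10.8%). CCL20, SELE, LTB and IL32, which are among the matches of the strongly raised genes, passed the count filter only through libraries treated with TNF. CXCL1, CXCL2 and CXCL3 were counted singly, though the bases around their match are nearly the same. These shares and those that follow are a description. Within the stretch from 120 to 21 bases before the start, the shares were 34.8% of the genes at least 2-fold higher, 8.2% of those under 2-fold and 4.13% of all genes. The letters TATAAA, the core of the TATA box, stood 40 to 20 bases before the start on the gene's strand in 14 of 46 genes at least 2-fold higher (30.4%), in 20 of 256 under 2-fold (7.81%) and in 283 of 11133 in all (2.54%). The AP-1 letters TGANTCA, whose reverse complement has the same form, stood in 5 of 46 genes at least 2-fold higher (10.9%), against 7.36% of all genes. The cyclic AMP response element TGACGTCA stood in 3 of 46 (6.52%), against 3.62% of all, and the CArG box bound by serum response factor in 1 of 46 (2.17%), against 1.63%. The window of TNF itself held no κB match, and that of BIRC3 held 1 at 199 bases before the start. A match is a description of letters, and binding was not measured. For the genes called lower the count was void, since 76% of their protein-coding members had a window.

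Gene lists are used from here on. They were chosen with earlier results of these data known, so list counts set beside shares of all genes are a description. Among the secreted signals are the chemokines. Of 17 chemokine genes listed, 8 passed the filter, 6 of those were called higher against 2.03% of all genes, 5 of them by at least 2-fold, and none was called lower. CCL20 and CXCL17 reached the filter's minimum in too few untreated libraries to pass without those treated with TNF, so their part in these counts is a description. CXCL8, the chief neutrophil chemokine (interleukin 8), had 116, 132 and 147 CPM with TNF and 1.91, 1.83 and 2.02 CPM untreated, a log2 fold change of 6.11 ± 0.09 (SE, adjusted p = 4.22e-27). CXCL1, which acts on the same receptor CXCR2, had 85.2, 92.9 and 97.9 CPM with TNF and 0.888, 0.89 and 1.00 CPM untreated, a log2 fold change of 6.64 ± 0.11 (adjusted p = 1.51e-22). The TNF libraries of both genes lay far above the untreated ones, and the lowest TNF value exceeded the highest untreated value in each. Over all genes tested, the groups did not overlap for 16.1% on the higher side and 11.8% on the lower.

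CXCL2 and CXCL3, close relatives of CXCL1, showed the same separation. CXCL2 had 21.7, 25.7 and 25.6 CPM with TNF and 0.348, 0.215 and 0.2 CPM untreated (log2 fold change 6.52 ± 0.19). CXCL3 had 27.4, 30.4 and 29.8 CPM with TNF and 0.348, 0.368 and 0.62 CPM untreated (6.09 ± 0.17). The transcripts of CXCL1, CXCL2 and CXCL3 are similar in sequence, and the sources used here do not give how reads that fit several of them were counted, so their separate values are uncertain. CCL20, which attracts cells bearing CCR6, had 3.35, 4.37 and 5.00 CPM with TNF and 0.0386, 0.0307 and 0 CPM untreated, resting on 5 untreated counts (7.25 ± 0.35). CXCL16, a ligand of CXCR6 made as a membrane protein, rose much less, with 86.6, 89.9 and 94.1 CPM with TNF and 73.65, 72.5 and 71.1 CPM untreated (0.32 ± 0.05). The 9 chemokines that did not pass the filter had few reads, such as CXCL10 with 18 counts over the TNF libraries and 2 over the untreated ones, CXCL5 with 14 and 0, and CCL2 with 10 and 2.

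**Figure D2:**
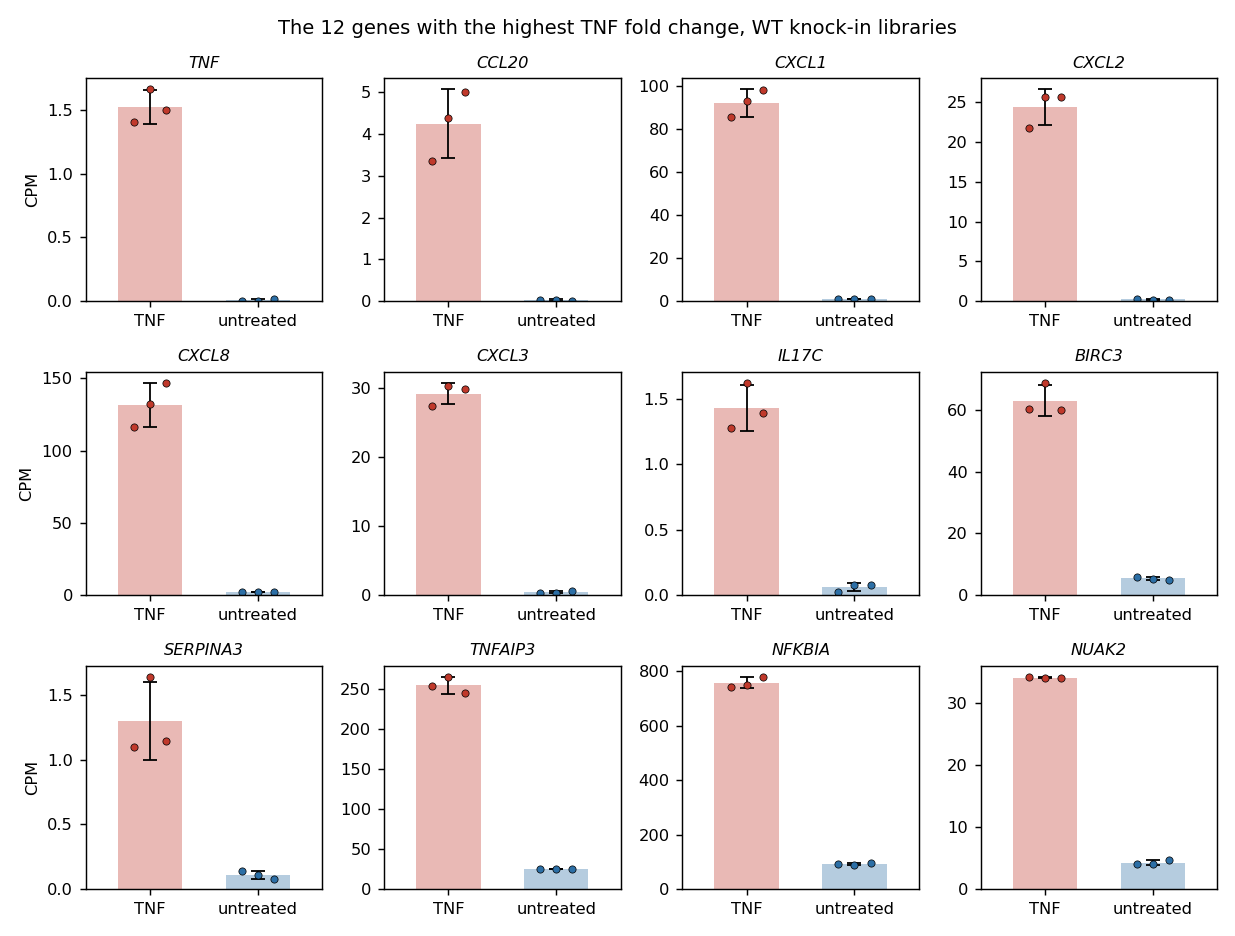
Levels in CPM of the 12 genes with the highest fold change among those with at least 1 CPM with TNF, each with TNF on the left and untreated on the right. Points are libraries, bars are means and error bars are SD (n = 3 per group). Only called genes whose groups did not overlap were eligible. That the TNF libraries lie above the untreated ones in all 12 panels therefore follows from the choice. NFKBIA, for example, had 744 to 781 CPM against 87.4 to 96.5 CPM. TNF, CCL20, IL17C and SERPINA3 passed the count filter only through libraries treated with TNF.

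A second list holds cytokines, growth factors and adhesion molecules. Of its 24 tested members 13 were called higher and 0 lower, beside 2.03% and 3.15% of all genes. However, 6 of the 13 (TNF, SELE, CSF2, LTB, IL32 and IL1A) passed the filter only through libraries treated with TNF, so the count is a description. The cells' own TNF transcript had 1.4, 1.66 and 1.5 CPM with TNF and 0, 0 and 0.02 CPM untreated. That is 244 counts against 1, a ratio of 294 with a 95% interval of 52.2 to 11600 that covers counting error only. The TNF group thus lay above a group that was nearly at 0. CD83, an immunoglobulin-like surface protein best known from dendritic cells, had 43.6, 45.4 and 43.9 CPM with TNF and 11.4, 12.3 and 12.7 CPM untreated (log2 fold change 1.87 ± 0.07, adjusted p = 2.52e-18). CSF1, the macrophage growth factor, had 10.9, 11.7 and 11 CPM with TNF and 5.12, 4.94 and 4.82 CPM untreated (1.17 ± 0.09).

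The other members of this list that were called are named after their values were seen. SELE, the adhesion molecule E-selectin known from endothelium, had 143 counts over the TNF libraries and 1 over the untreated ones, a ratio of 172 with an interval of 30.4 to 6840. CSF2, the cytokine GM-CSF, had 0.549, 0.952 and 0.609 CPM with TNF and 0.0129, 0.0307 and 0.02 CPM untreated. LTB, IL32, EDN1 and IL1A stayed under 2 CPM and rose by 3.14, 2.15, 1.87 and 1.83 on the log2 scale. ICAM1, a ligand for leukocyte integrins, averaged 39.3 ± 2.38 CPM with TNF and 16.1 ± 0.2 CPM untreated (SD, n = 3 each), and LIF averaged 120 ± 3.99 and 74.0 ± 1.49 CPM. PDGFB averaged 57.3 ± 0.83 CPM with TNF and 33.2 ± 1.23 CPM untreated. TNFSF15 averaged 0.591 ± 0.082 CPM with TNF and 0.3 ± 0.065 CPM untreated, and its call and that of IL1A were lost without any of several single libraries. The other 7 listed genes did not pass the filter, among them IL6 with 2 counts in each group, VCAM1 with 3 and 0, and CSF3 with 0 in both.

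The IκB proteins hold NF-κB dimers inactive or modify their action in the nucleus. NFKBIA, which encodes IκBα and is the edited gene, had 744, 749 and 781 CPM with TNF and 90.8, 87.4 and 96.5 CPM untreated, a log2 fold change of 3.05 ± 0.05 (adjusted p = 2.79e-25). A gene-level count does not check which IκBα residues the cells carry. Of the 8 IκB proteins and IκB regulators 6 were called higher, 3 of them by at least 2-fold, and 0 lower, beside 2.03% and 3.15% of all genes. NFKBIZ, an atypical nuclear IκB that is needed for a subset of secondary targets, had 53.7, 56.6 and 51.1 CPM with TNF and 6.81, 6.34 and 6.58 CPM untreated (3.03 ± 0.07). The groups were again far apart.

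BCL3, a nuclear partner of NFKB1 and NFKB2 dimers, averaged 55.2 ± 3.44 CPM with TNF and 25.2 ± 1.12 CPM untreated (log2 fold change 1.13). NFKBIE, encoding IκBε, averaged 30.6 ± 0.77 and 16.2 ± 0.31 CPM (0.92), and NFKBID 6.76 ± 0.58 and 4.73 ± 0.27 CPM (0.52). NKIRAS1, a Ras-like protein that binds IκB, averaged 20.5 ± 0.72 CPM with TNF and 17.4 ± 0.43 CPM untreated, and its call was lost without TNF library 2 or 3, without untreated library 1 or 2, and with offsets for GC content. NFKBIB, encoding IκBβ, averaged 53 ± 0.57 CPM with TNF and 47.0 ± 3.67 CPM untreated and was not called (adjusted p = 0.0949). It was called without untreated library 3 (adjusted p = 0.035) and with offsets for GC content (adjusted p = 0.00055). NKIRAS2 averaged 46.6 ± 1.56 and 45.4 ± 0.71 CPM and was not called.

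The A20 group acts one step earlier, on ubiquitin chains and adaptors at the receptor. Of its 16 tested members 4 were called higher and 0 lower, beside 2.03% and 3.15% of all genes. TNFAIP3, which encodes the ubiquitin-editing enzyme A20, had 254, 265 and 245 CPM with TNF and 24.6, 24.9 and 24.9 CPM untreated, a log2 fold change of 3.36 ± 0.06 (adjusted p = 5.01e-25). TIFA, an adaptor that joins TRAF6 oligomers, had 56.4, 58.4 and 63.7 CPM with TNF and 29.8, 29.7 and 27.1 CPM untreated (1.04 ± 0.06). TNFAIP2, an early TNF target with a role in membrane tubes, had 267, 270 and 233 CPM with TNF and 137, 138 and 142 CPM untreated (0.88 ± 0.06). In all 3 genes the TNF group lay above the untreated one without overlap, as in 16.1% of all genes tested. USP12, a deubiquitinase, averaged 65.6 ± 1.89 and 56.5 ± 2.48 CPM, and its call was lost without any of 4 single libraries. TNIP1, an A20 partner, averaged 68.1 ± 1.06 CPM with TNF and 68.45 ± 4.35 CPM untreated, and CYLD, another deubiquitinase of the pathway, averaged 13.2 ± 0.49 and 11.9 ± 0.4 CPM. Neither was called.

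The receptor complex and the kinases act upstream of NF-κB. In the receptor complex list 1 of 16 tested genes was called higher and 0 lower, beside 2.03% and 3.15% of all genes, and the median log2 fold change was -0.01. That gene was BIRC3, the ubiquitin ligase cIAP2, with 60.2, 68.7 and 60.1 CPM with TNF and 5.97, 5.24 and 4.98 CPM untreated (3.54 ± 0.08, adjusted p = 1.99e-22). The receptor gene TNFRSF1A had 76.8, 76.6 and 81.3 CPM with TNF and 79.3, 77.1 and 81.4 CPM untreated. RIPK1 averaged 54.1 ± 0.9 and 53.8 ± 1.22 CPM, and TRADD 15.6 ± 0.33 and 17.1 ± 0.73 CPM. None of these 3 was called, and the TNFRSF1A and RIPK1 groups overlapped.

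In the list of IKK, TAK1 and LUBAC genes 1 of 17 was called higher and 1 lower, beside the same shares of all genes. MAP3K8, the kinase TPL2 that links IKK to the ERK cascade, had 27.2, 27.7 and 27.7 CPM with TNF and 4.66, 4.51 and 5.16 CPM untreated (2.53 ± 0.08, adjusted p = 2.12e-19). RNF31, the catalytic subunit HOIP of the linear ubiquitin ligase LUBAC, had 2.28, 1.96 and 1.57 CPM with TNF and 2.67, 2.81 and 2.84 CPM untreated, and its call was lost without TNF library 3 and without untreated library 2 or 3. RNF31 overlaps PSME2 on the other strand. The IKK subunit genes CHUK, IKBKB and IKBKG averaged 90.3, 43.1 and 6.40 CPM with TNF and 81.1, 47.0 and 6.38 CPM untreated, none of them called. CHUK was called when the 6 WT libraries were fitted alone (adjusted p = 0.044) and IKBKB, as lower, with offsets for GC content (adjusted p = 0.036).

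The NF-κB subunit genes moved modestly. Of 5 genes 3 were called higher, beside 2.03% of all genes, and none reached 2-fold. NFKB2, the precursor of p52, had 139, 135 and 121 CPM with TNF and 97.2, 97.6 and 101 CPM untreated (log2 fold change 0.41 ± 0.05, adjusted p = 6.35e-06). RELB, the partner of p52, had 16.4, 17.3 and 16.3 CPM with TNF and 11.9, 12.3 and 12.8 CPM untreated (0.44 ± 0.09). REL had 11.7, 11.6 and 9.66 CPM with TNF and 8.96, 8.75 and 7.90 CPM untreated (0.35 ± 0.08), and its call was lost without TNF library 2 or untreated library 3. RELA averaged 115 ± 4.49 and 110 ± 0.73 CPM and NFKB1 74.6 ± 1.58 and 69.9 ± 0.86 CPM. Neither RELA nor NFKB1, the subunits of the classical dimer, was called.

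**Figure D3:**
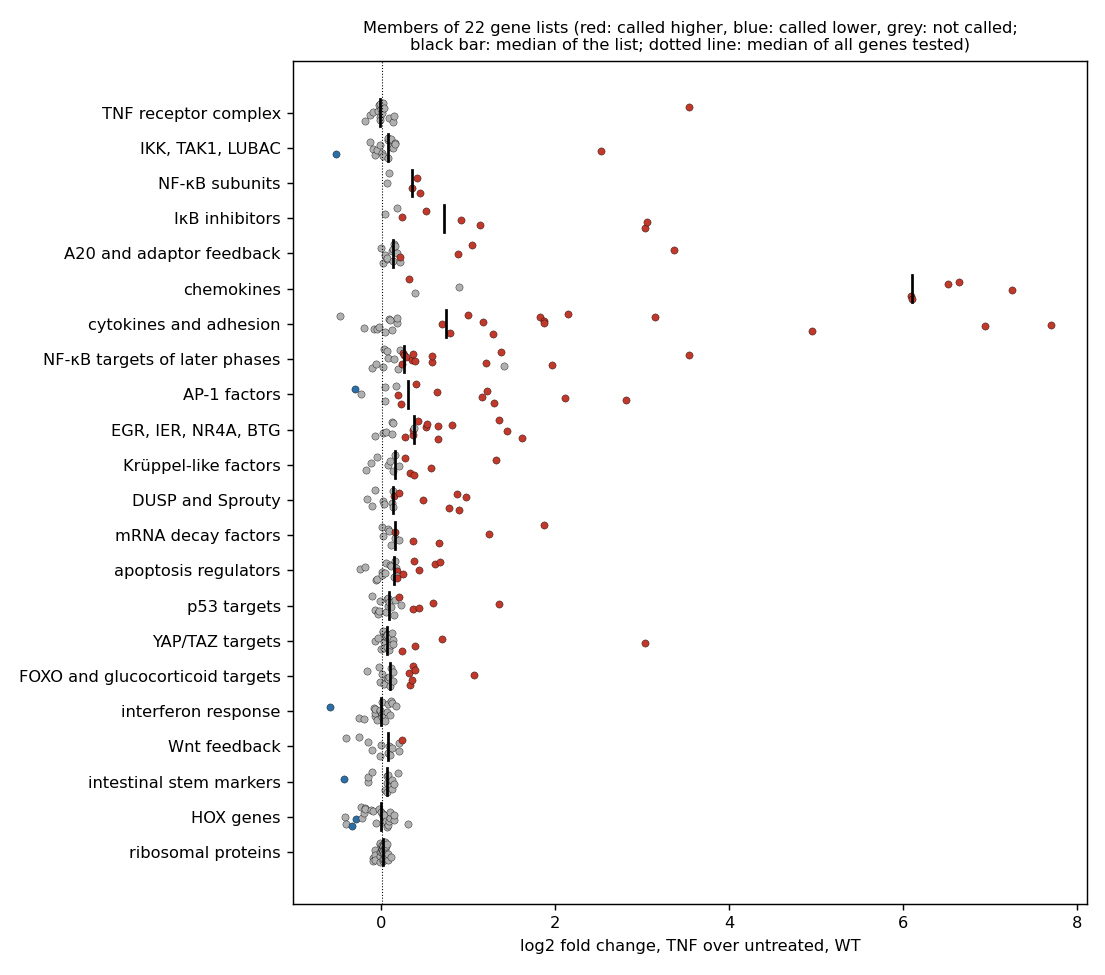
Log2 fold change of TNF over untreated for every tested member of 22 gene lists, 1 point per gene, red where called higher, blue where called lower and grey where not called. The black bar is the list's median and the dotted line the median of all genes, 0.01. Among the chemokines 6 of 8 points are red, and in the receptor complex list 1 of 16. Of the points in the cytokine list 6, and of those in the chemokine list 2, are genes that passed the count filter only through libraries treated with TNF. The lists were chosen with earlier results of these data known.

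Immediate early transcription factors rose alongside the NF-κB targets. Of 14 tested AP-1 factors 9 were called higher, 5 of them by at least 2-fold, and 1 lower, beside 2.03% and 3.15% of all genes. JUN had 160, 144 and 166 CPM with TNF and 21.3, 21.6 and 24.2 CPM untreated, a log2 fold change of 2.81 ± 0.07 (adjusted p = 1.79e-19). JUNB had 348, 334 and 367 CPM with TNF and 81.1, 75.9 and 86.2 CPM untreated (2.11 ± 0.06). Both JUN family members separated the groups without overlap, as held for 16.1% of all genes tested on the higher side. The stress-induced factor ATF3 averaged 45.0 ± 3.52 CPM with TNF and 18.3 ± 0.55 CPM untreated, the small MAF protein gene MAFF 44.8 ± 2.16 and 19.3 ± 0.88 CPM, and FOSB 7.68 ± 0.49 and 3.44 ± 0.03 CPM. FOSL2 rose by 0.64, JUND by 0.40, FOSL1 by 0.22 and MAFG by 0.19 on the log2 scale. FOS, the founding member of its family, had 5.16, 5.06 and 5.57 CPM with TNF and 6.45, 6.23 and 6.90 CPM untreated, and was called lower (-0.31 ± 0.09, adjusted p = 0.0371). The FOS call was lost without any of the 6 libraries in turn, and those of JUND, FOSL1 and MAFG without at least 3 of them, TNF library 3 included.

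Among the EGR, IER, NR4A and BTG genes 12 of 19 were called higher and 0 lower, beside 2.03% and 3.15% of all genes. IER3, an early survival gene, had 732, 691 and 786 CPM with TNF and 237, 237 and 244 CPM untreated (1.62 ± 0.05, adjusted p = 6.62e-19). EGR3 averaged 5.26 ± 0.12 CPM with TNF and 1.95 ± 0.22 CPM untreated, and BTG2, an antiproliferative factor that promotes deadenylation, 95.3 ± 6.7 and 37.3 ± 1.12 CPM. The zinc finger factor EGR1 rose by 0.82, and the orphan nuclear receptors NR4A1, NR4A2 and NR4A3 by 0.65, 0.42 and 0.53 on the log2 scale. CSRNP1, IER2, BTG1, SGK1 and IER5L rose by 0.28 to 0.66, and the calls of SGK1 and IER5L were lost without TNF library 3 among others. Each of these genes changed by less than 2-fold, apart from IER3, EGR3 and BTG2.

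Other early factors rose in part. Of 13 Krüppel-like factor genes 5 were called higher, beside 2.03% of all genes. KLF10 rose most, with 190, 197 and 209 CPM with TNF and 83.5, 78.6 and 76.3 CPM untreated (1.32 ± 0.05). KLF6 rose by 0.57, KLF3 by 0.37, KLF9 by 0.33 and KLF11 by 0.27 on the log2 scale, and the KLF9 call was lost without TNF library 3 or untreated library 1. Of 23 other early factors 6 were called higher and 2 lower, beside 2.03% and 3.15% of all genes. IRF1, which links NF-κB to interferon-type genes, had 223, 230 and 238 CPM with TNF and 32.8, 33.6 and 33.8 CPM untreated (2.78 ± 0.06, adjusted p = 1.51e-22). CEBPD had 36.0, 34.8 and 36.3 CPM with TNF and 6.94, 5.99 and 8.56 CPM untreated (2.33 ± 0.12). ELF3, an epithelial ETS factor, averaged 273 ± 9.7 CPM with TNF and 131 ± 5.91 CPM untreated. BHLHE40, MYC and SOX4 rose by 0.54, 0.24 and 0.21 on the log2 scale, with the MYC call lost without TNF library 3 and the SOX4 call without any single library. ID1 fell by 0.26 and ID2 by 0.27, both inhibitors of basic helix-loop-helix factors and known targets of BMP signalling.

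Genes that damp signalling and RNA stability were raised moderately. Among the dual-specificity phosphatase and Sprouty genes, which switch off MAP kinases, 7 of 15 were called higher and 0 lower. The shares of all genes were 2.03% and 3.15%, and no member of the list reached 2-fold. DUSP8 averaged 28 ± 0.14 CPM with TNF and 14.3 ± 0.31 CPM untreated, DUSP10 6.73 ± 0.77 and 3.62 ± 0.25 CPM, DUSP1 15.6 ± 1.57 and 8.58 ± 0.47 CPM, and DUSP5 130 ± 8.94 and 76.3 ± 2.17 CPM. ERRFI1, an inhibitor of EGFR, rose by 0.48, DUSP6 by 0.20 and SPRY4 by 0.15 on the log2 scale, the calls of DUSP6 and SPRY4 being lost without single libraries. Of 12 mRNA decay genes 5 were called higher and 0 lower, beside the same shares of all genes. ZFP36, the protein tristetraprolin that binds AU-rich elements of cytokine mRNAs, had 107, 111 and 109 CPM with TNF and 29.3, 29.3 and 30.7 CPM untreated (1.87 ± 0.06). ZC3H12A, the endonuclease Regnase-1, averaged 17.9 ± 1.44 and 7.59 ± 0.11 CPM. ZFP36L1 and ZFP36L2 rose by 0.66 and 0.37 on the log2 scale and BTG3 by 0.16, with the BTG3 call lost under many settings.

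The tested members of the list of apoptosis regulators changed by less than 2-fold. BIRC3, TNFAIP3 and the survival gene IER3, described above, stood on other lists and rose by more than 2-fold. Of the 21 tested 7 were called higher and 0 lower, beside 2.03% and 3.15% of all genes, with a median log2 fold change of 0.14. BBC3 and PMAIP1, which encode the BH3-only proteins PUMA and NOXA, averaged 70.2 ± 2.28 and 42.2 ± 1.28 CPM with TNF and 44.0 ± 2.72 and 27.6 ± 1.16 CPM untreated. BIK, another BH3-only gene, rose by 0.43 on the log2 scale, GADD45B by 0.37 and GADD45A by 0.25. The TRAIL receptor genes TNFRSF10A and TNFRSF10B rose by 0.18 and 0.18, and both calls, like that of GADD45B, were lost without TNF library 3. Among 20 tested p53 targets 5 were called higher and 0 lower, beside the same shares of all genes, and BTG2 alone reached 2-fold. GDF15 averaged 300.2 ± 27.3 CPM with TNF and 199 ± 14.1 CPM untreated, and PLK2 290 ± 16.1 and 215 ± 2.47 CPM. CDKN1A, encoding p21, rose by 0.20 on the log2 scale, a call lost in 5 of the 6 fits that left out a library, and PLK3 by 0.37.

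Of 22 genes of the YAP and TAZ programme 4 were called higher and 0 lower, beside 2.03% and 3.15% of all genes. NUAK2, a kinase of the AMPK family, had 34.3, 34.1 and 34.0 CPM with TNF and 3.95, 3.96 and 4.68 CPM untreated (3.03 ± 0.09, adjusted p = 4.19e-18). CCN1 averaged 41.7 ± 7.3 and 25.7 ± 0.95 CPM, F3, the tissue factor gene, rose by 0.39 and AMOTL2 by 0.24 on the log2 scale. The AMOTL2 call was lost without TNF library 3. The list's median was 0.06, so most of its members did not move with NUAK2. Of 18 FOXO and glucocorticoid-type targets 6 were called higher and 0 lower, beside the same shares of all genes. DEPP1, a FOXO target, averaged 31.4 ± 1.27 CPM with TNF and 14.96 ± 0.18 CPM untreated, TRIB1 rose by 0.39, CITED2 by 0.35 and TSC22D3 by 0.32 on the log2 scale.

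A list of NF-κB targets that are known from later phases of the response already moved in part. Of 23 tested members 13 were called higher and 0 lower, beside 2.03% and 3.15% of all genes, with a median log2 fold change of 0.27. PLAU, the urokinase gene, averaged 118 ± 3.29 CPM with TNF and 45.2 ± 2.03 CPM untreated, and SDC4, a heparan sulphate proteoglycan, 380 ± 20.2 and 166 ± 3.34 CPM. STX11, named after its values were seen, averaged 1.14 ± 0.11 and 0.292 ± 0.03 CPM. SOD2 averaged 154 ± 4.46 and 130 ± 3.72 CPM, TAP1 75.1 ± 3.97 and 62.5 ± 1.45 CPM, and PTGS2 2.07 ± 0.39 and 1.378 ± 0.17 CPM, with the PTGS2 call lost without single libraries. The other 10 listed members did not pass the filter, among them SAA1 with 9 counts over the TNF libraries and 14 over the untreated ones, and MMP1 with 17 and 16.

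As the lists were chosen with earlier results of these data known, the number of raised genes on them is a description. Of the 63 genes at least 2-fold higher, 41 stood on a list, 6 carried only a clone or Ensembl name, and 16 remained. Of these 16, IL17C, a cytokine made by epithelial cells, had 1.28, 1.62 and 1.39 CPM with TNF and 0.0257, 0.0768 and 0.08 CPM untreated (4.60 ± 0.36, adjusted p = 2.76e-10). SERPINA3, an acute phase protease inhibitor, had 1.10, 1.64 and 1.15 CPM with TNF and 0.142, 0.107 and 0.08 CPM untreated (3.49 ± 0.30). Both IL17C and SERPINA3 passed the count filter only through libraries treated with TNF, so their values are a description. EFNA1, a ligand of EPH receptors first found as a TNF-induced gene, averaged 76.6 ± 2.36 CPM with TNF and 20.1 ± 1.2 CPM untreated. PPP1R15A, the GADD34 subunit that reverses eIF2α phosphorylation, averaged 155 ± 4.52 and 63.8 ± 3.18 CPM. NOCT, encoding nocturnin, averaged 28.5 ± 0.22 and 12.3 ± 0.45 CPM, and NEURL3, a ubiquitin ligase, 1.17 ± 0.13 and 0.192 ± 0.05 CPM. EFNA1, PPP1R15A, NOCT and NEURL3 were chosen after their values were seen.

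Of the 63 genes at least 2-fold higher, 28 had an untreated mean under 1 CPM and 35 had 1 CPM or more. Of the 63, 13 passed the filter only through libraries treated with TNF. Small rises in genes with few reads cannot be called at this depth, so the sizes of the rises at low and high untreated levels are not compared. The genes at least 2-fold higher had a median span of 8.54 kb with 4 exons, those higher by less than 2-fold 23.2 kb with 5 exons, and all genes tested 23.6 kb with 6 exons. In all, the 63 genes took 0.469, 0.474 and 0.499% of the counts of the TNF libraries and 0.127, 0.125 and 0.13% of those of the untreated libraries. Antisense and other noncoding RNAs with at least 1 CPM that rose most were BAZ1A-AS1, GASAL1, RAET1K, HCP5 and ELF3-AS1, by 0.85, 0.59, 0.57, 0.35 and 0.32 on the log2 scale. The HCP5 call was lost without TNF library 2 or 3 or untreated library 1, and the ELF3-AS1 call without TNF library 2 or untreated library 2. BAZ1A-AS1 and ELF3-AS1 overlap BAZ1A and ELF3, and whether the counting used strand is not given, so their reads cannot be told apart from those of their partners. The same holds for TNFAIP3, IRF1, JUNB, IER3 and other named genes that overlap a gene on the other strand. Among genes called higher, PDP1, APP, TMBIM6, PHLDA1 and GPRC5A were among those with the highest CPM, which is not scaled by length, and they rose by 0.14 to 0.35 on the log2 scale. The calls of APP, TMBIM6 and PDP1 were each lost without at least 1 library.

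The 600 genes called lower changed little. Their median log2 change was 0.42 in size, and their median level was 7.57 CPM with TNF and 10.2 CPM untreated. The 12 lowest with at least 1 CPM untreated were ASMTL-AS1, CTNS-AS1, LINC02990, ATG9B, IL11RA, CAPN3, FMNL1-AS1, ADAM8, AP1G2-AS1, TMEM91, EFEMP2 and WDR97. All of these but LINC02990, CAPN3 and ADAM8 overlap a gene on the other strand, and whether the counting used strand is not given. Such an overlap is annotated for 57.3% of the genes called lower and 55.8% of all genes tested. ASMTL-AS1 had 0.305, 0.672 and 0.226 CPM with TNF and 1.00, 1.14 and 0.96 CPM untreated (-1.37 ± 0.27, adjusted p = 0.00203). ATG9B, an autophagy gene, had 0.671, 0.766 and 0.696 CPM with TNF and 1.6, 1.34 and 1.66 CPM untreated (-1.10 ± 0.18). These genes lay near 1 CPM, and the calls of FMNL1-AS1 and WDR97 were lost without TNF library 3.

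Genes called lower with the smallest p were named after their values were seen. DDX39B, an RNA helicase of mRNA export and splicing, had 55.8, 57.7 and 47.2 CPM with TNF and 78.6, 81.7 and 71.7 CPM untreated (-0.53 ± 0.07, adjusted p = 1.38e-05). GIGYF1, a translational repressor, averaged 88.3 ± 6.04 CPM with TNF and 116 ± 2.11 CPM untreated, and CHTF18, of the alternative clamp loader, 77.9 ± 7.15 and 106 ± 2.93 CPM. MAT2A, which makes S-adenosylmethionine and is known for an intron whose retention is regulated, averaged 271 ± 7.57 and 317 ± 15.1 CPM. LAMA5 had 415, 376 and 284 CPM with TNF and 480, 505 and 506 CPM untreated, and its call was lost without untreated library 2 or 3 and when the 6 WT libraries were fitted alone. In DDX39B and LAMA5 the lowest value was that of TNF library 3.

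Genes called lower shared features that the test did not use. GENCODE lists at least 2 transcripts with a retained intron for 55.4% of them, against 12.9% of the genes at least 2-fold higher, 19.8% of those higher by less than 2-fold and 29.2% of all genes tested. They also have more annotated transcripts, with a median of 9 per gene, against 3 for the genes at least 2-fold higher, 5 for those higher by less than 2-fold and 5 for all genes, and the part of this in the intron share was not tested. Their transcripts had a median GC content of 58.2%, against 52.7% and 45.9% in the 2 groups of higher genes and 49% in all genes. Their median exon number was 9. The classes were not matched for level. Under 1 CPM untreated were 9.67% of the genes called lower, 44.4% and 1.23% of the 2 groups of higher genes, and 27.7% of all genes. With offsets that remove each library's trend on GC content the test called 1130 genes, and 850 of the 987 calls were among them. Kept were 553 of the 600 lower calls and 297 of the 387 higher calls.

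Over the genes called with small changes TNF library 3 lay furthest from the untreated libraries, and over the large rises it did not. For each library the median log2 difference to the mean of the untreated libraries was taken over the genes of a class. Over the 600 genes called lower it was -0.32, -0.35 and -0.56 in TNF libraries 1, 2 and 3, and over the 324 genes higher by less than 2-fold it was 0.22, 0.23 and 0.32. Over the 63 genes at least 2-fold higher it was 1.69, 1.69 and 1.63. The classes were chosen by a test that included TNF library 3, so its place in them is a description. Without TNF library 3, 246 of the 600 lower calls and 179 of the 387 higher calls were kept. TNF library 3 was also lowest in some noncoding RNAs. NEAT1 had 160, 155 and 101 CPM with TNF and 224, 222 and 206 CPM untreated, and was called lower (-0.65 ± 0.14, adjusted p = 0.016), a call lost without untreated library 1 or 2 and when the 6 WT libraries were fitted alone. MALAT1 had 60.3, 59.4 and 31.2 CPM with TNF and 84.5, 79.9 and 81.5 CPM untreated and was not called (adjusted p = 0.0807), while DESeq2 called it (adjusted p = 0.012). The noncoding RNA SNHG12 was closer across the TNF libraries, with 36.2, 36.1 and 33.1 CPM with TNF and 44.9, 47.1 and 44.3 CPM untreated, and was called lower (adjusted p = 0.000225). The mitochondrial light-strand transcript MT-ND6 had 87.7, 93.3 and 35.5 CPM with TNF and 124, 141 and 127 CPM untreated (adjusted p = 0.14). NEAT1, MALAT1, SNHG12 and MT-ND6 were chosen after their values were seen, and their part in the lower calls was not tested.

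**Figure D4:**
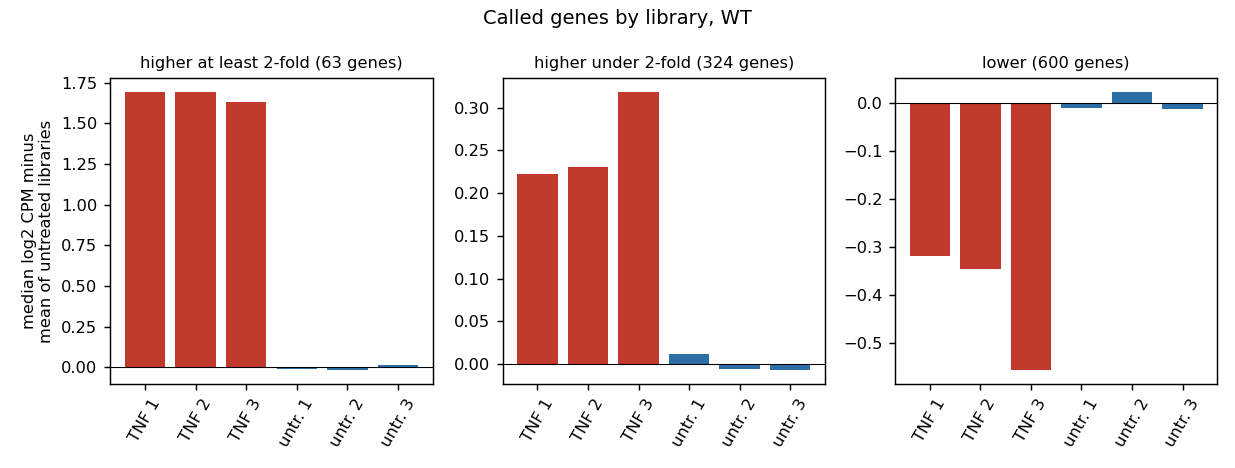
Median log2 difference of each WT library to the mean of the 3 untreated libraries, over the 63 genes called at least 2-fold higher, the 324 called higher by less than 2-fold and the 600 called lower, with TNF libraries left of untreated ones. The 3 TNF bars are level at 1.63 to 1.69 in the first panel, while TNF library 3 is furthest from 0 in both other panels. The classes were chosen by a test that included TNF library 3, so its place in them is a description.

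The large rises were called again in the other lines for most genes, and the falls for few. The N108 and M3 libraries enter neither mean of the WT contrast, but they share its estimate of spread and its count filter. With the 6 WT libraries fitted alone, 837 of the 987 calls were kept. Of the 63 genes at least 2-fold higher in WT, 50 were called higher with TNF in N108 and 50 in M3, where 1.1% of all genes were called higher in each line. However, 13 of the 63 passed the count filter only through libraries treated with TNF, those of N108 and M3 included, so their part in these counts is a description. Of the 324 genes higher by less than 2-fold in WT, 99 were called higher in N108 (30.6%) and 120 in M3 (37%). Of the 600 genes called lower in WT, 2 were called lower in N108 (0.333%, beside 0.0998% of all genes) and 12 in M3 (2%, beside 0.278%). The median log2 fold change of these 600 genes was 0.05 in N108 and -0.05 in M3, beside -0.42 in WT, where the genes had been chosen. Their values lay above 0 for 403 of 600 genes in N108 and for 167 of 600 in M3, where 433 lay below 0. Of all 19038 genes tested, 9687 lay above 0 in N108 and 9231 in M3.

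**Figure D5:**
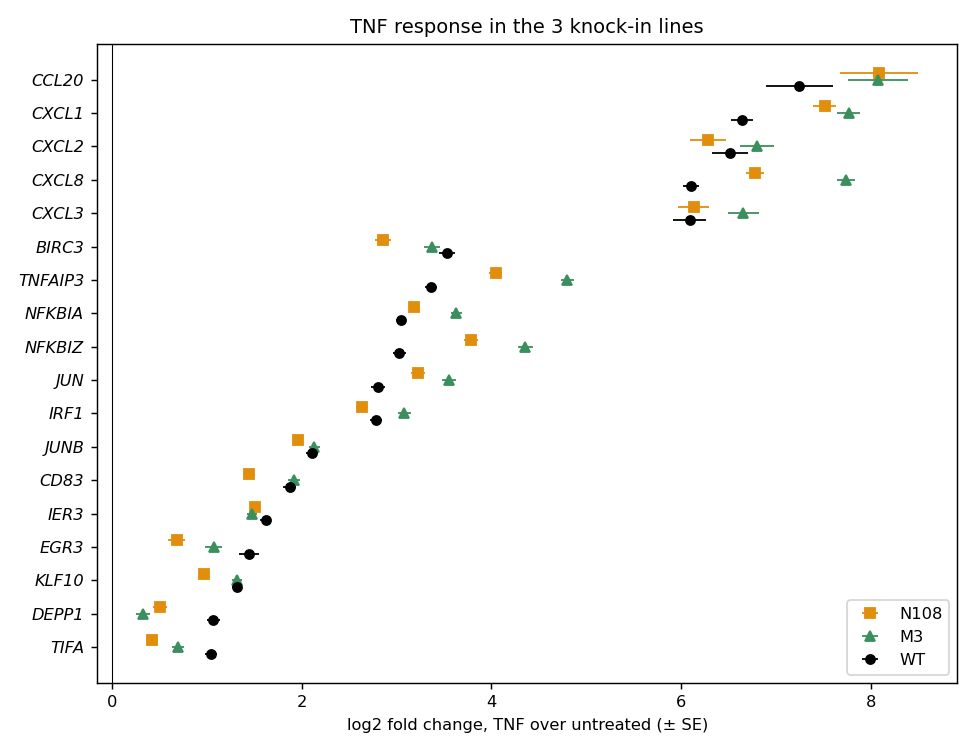
Log2 fold change of TNF over untreated, with SE, in N108 (squares), M3 (triangles) and WT (circles) for 18 genes. CXCL8, TNFAIP3 and NFKBIZ lie further right in N108 and M3 than in WT, while DEPP1, TIFA and EGR3 lie further left. The difference from WT was called in both mutants for the first 3 and for DEPP1, and in N108 for TIFA and EGR3.

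The difference between lines was itself tested, as the TNF response of a mutant line minus that of WT. In N108 minus WT 498 genes were called (2.62%), 387 with a higher response in N108 and 111 with a lower one (2.03% and 0.583%). In M3 minus WT 60 were called (0.315%), 54 higher and 6 lower (0.284% and 0.0315%). The M3 count was 14 without untreated WT library 1 and 125 without TNF library 1 of WT, and the N108 count was 183 without TNF library 3. With offsets for GC content 147 genes were called in N108 minus WT and 230 in M3 minus WT, so the order of the 2 counts changed, and DESeq2 called 1105 and 150. CXCL8 averaged 112 CPM with TNF and 1.02 CPM untreated in N108, a response that exceeded that of WT by 0.67 ± 0.15 on the log2 scale (adjusted p = 0.0163). In M3 it averaged 203 and 0.946 CPM, a response higher than in WT by 1.63 ± 0.15 (adjusted p = 3.69e-07). WT averaged 132 ± 15.2 CPM with TNF and 1.92 ± 0.1 CPM untreated, and its untreated level was above those means of N108 and M3.

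TNFAIP3 averaged 157 CPM with TNF and 9.51 CPM untreated in N108, 211 and 7.58 CPM in M3, and 255 and 24.8 CPM in WT. Its response was higher than in WT by 0.68 in N108 and by 1.44 in M3 on the log2 scale (adjusted p = 0.000259 and 3.04e-11). Both the level with TNF and the untreated level were higher in WT in these means. NFKBIA averaged 276 and 30.3 CPM with and without TNF in N108, 966 and 77.9 CPM in M3, and 758 and 91.6 CPM in WT, a response higher in M3 than in WT by 0.58 (adjusted p = 3.54e-05). In N108 its response differed from WT by 0.14 ± 0.07, which was not called. BIRC3 went the other way in N108, with 34.0 and 4.69 CPM there and 63.0 and 5.40 CPM in WT, a response lower by 0.67 (adjusted p = 0.00326). For JUNB, IRF1, IER3, CXCL2 and CXCL3 the difference between lines was not called in either mutant.

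Other lists are read beside the 2.03% of all genes called higher and the 3.15% called lower. Of 20 tested interferon response genes 0 were called higher and 1 lower, IRF9, which averaged 2.01 ± 0.4 CPM with TNF and 3.02 ± 0.07 CPM untreated and lost its call without TNF library 3. The other 7 listed members did not pass the filter, and of these IFNB1 had 0 counts in both groups. Over the TNF and the untreated libraries CXCL10 had 18 and 2 counts, IFNL1 10 and 1, and IFNL2 8 and 2. OAS2 had 22 and 17, IFNL3 10 and 11, and IFI44L 10 and 17. Of 21 hypoxia and glycolysis genes DDIT4 alone was called, higher by 0.32 on the log2 scale, and it lost its call without TNF library 3. Of 13 tested Wnt feedback genes MYC was called higher and none lower, and AXIN2, the usual readout of the pathway, averaged 16 ± 0.57 and 17.9 ± 0.91 CPM and was not called. Of 15 tested intestinal stem cell markers 0 were called higher and 1 lower, TERT, with 3.75 ± 0.53 CPM with TNF and 5.04 ± 0.36 CPM untreated. The TERT call was lost without TNF library 2 or 3 or untreated library 3. LGR5 had 11 counts in each group and was not tested. Of 27 tested HOX genes 2 were called lower, HOXB6 at -0.30 and HOXB5 at -0.34 on the log2 scale, and 0 higher. None of 38 ribosomal protein genes, 12 tested replication histone genes or 13 mitochondrial mRNAs was called, with medians of 0.02, 0.14 and -0.14.

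The labelled cell type was checked against its markers. KRT8, KRT18 and KRT19, keratins of simple epithelium, averaged 3062, 1392 and 1627 CPM with TNF and 2897, 1319 and 1636 CPM untreated, and EPCAM and CDH1 were present in all libraries. CEACAM5, CEACAM6, CDH17 and VIL1, markers of differentiated colon cells, had 3, 2, 3 and 23 counts over the TNF libraries and 1, 0, 2 and 32 over the untreated ones, and CDX1 had 0 in both. Of 11 tested epithelial markers 2 were called higher, ELF3 and CLDN4, and 0 lower, beside 2.03% and 3.15% of all genes. Of 12 immune markers 3 passed the filter and none was called, PTPRC, CD3D, MS4A1 and NKG7 were at 0, and the summed level of the 3 was 3.11 to 4.37 CPM with TNF and 2.90 to 3.44 CPM untreated. Of 12 fibroblast and endothelial markers 6 were tested, with a summed level of 27.7 to 32.3 CPM with TNF and 35.7 to 35.9 CPM untreated, and COL1A2, DCN and LUM were at 0. COL1A1 was called lower, with 17.2 ± 1.66 CPM with TNF and 22.8 ± 0.15 CPM untreated.

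The WT libraries held 49606478 to 58882553 counts with TNF and 49407844 to 76947190 untreated, and mitochondrial genes took 3.79 to 4.89% and 3.91 to 5.39% of them. The leading principal component of the 6 libraries, with 39.9% of the variance, placed the TNF libraries at 11.3, 14.1 and 34.7 and the untreated ones at -16.6, -19.8 and -23.6. No pair of replicates agreed within counting noise, so none was taken for a second copy of another. The cells are bulk samples, in which fewer cells of a kind and less RNA per cell cannot be told apart.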

How the data were processed

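Total RNA of HCT116 knock-in cells was sequenced, per the labels, in paired-end reads of 50 bp. Groups came from titles and treatment labels, since the protocol text gives the TNF treatment for untreated samples too. The authors deposited raw read counts per gene with Ensembl identifiers, and a normalized table that was not used here. Per the submitters' processing notes reads were handled with DESeq2 1.38.3, Subread 2.0.1 (featureCounts), STAR 2.7.8 and Trim Galore 0.6.6, listed without an order, on hg38. Not given in the sources used here are the annotation release, the strand setting and the handling of reads that map several times. A name table gave symbols for 99.75% of the genes. GENCODE 29 on GRCh38 supplied positions, and covered 97.4% of the genes tested.

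Testing used edgeR 4.0.16 (R 4.3.3) on the counts, after filterByExpr at a minimum count of 10 (99.97% of counts kept) and TMM scaling. A robust quasi-likelihood model with a mean per group was fitted to all 18 libraries, with 12 residual degrees of freedom. Tests were two-sided with Benjamini-Hochberg adjustment over 19038 genes. A gene is called at an adjusted p under 0.05. SE is the size of the log2 fold change divided by the root of F. CPM uses TMM-scaled totals. Intervals at 1 to 3 counts are exact binomial and cover counting error only, as PCR copies of a molecule cannot be recognised. Promoter windows came from RefSeq, matched by symbol for 11133 of 13904 protein-coding genes tested (80.1%), and 46 of the 57 at least 2-fold higher (80.7%). A gene with several starts counted as matched if any window matched.

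The members and the 29 gene lists were chosen with earlier results of these data known. Named genes were the 12 highest and 12 lowest called with at least 1 CPM and groups that did not overlap, the 3 members of each list with the smallest p, all called members of the central lists, the called genes with the highest CPM (1 of them is not reported here), the 5 noncoding RNAs that rose most, and markers. Other genes named are said to have been chosen after their values were seen or were members of a list described. The script for tests was tested on simulated data. Alternatives were DESeq2 1.42.0, its size factors, other filters, the WT libraries alone, leaving out each library, a replicate block and GC offsets.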

Additional observations from a re-analysis of the deposited data

Results flagged for a closer look

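Among 190 named genes, the interaction term in edgeR's quasi-likelihood test was called for 55 combinations of a gene with N108 or M3. Over all genes tested, 2.62% were called in N108 minus WT and 0.315% in M3 minus WT. Named genes were chosen largely by their TNF response in WT, which enters each difference, so the count is a description. Values are the log2 response of the mutant line minus that of WT, so a positive value means a higher response in the mutant.

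In N108 the response was higher than in WT for the NF-κB targets and early genes CXCL1 (0.87), NFKBIZ (0.76), TNFAIP3 (0.68), CXCL8 (0.67), ZC3H12A (0.53), JUN (0.42) and PLK3 (0.38), and for GDF15 (0.57). It was lower for TNFSF15 (-2.09), EGR3 (-0.76), BIRC3 (-0.67), TIFA (-0.62), DEPP1 (-0.56), CD83 (-0.43), KLF10 (-0.35) and USP12 (-0.35). Some of the named genes called lower in WT gave positive differences in N108. They were LINC02990 (1.27), ADAM8 (1.23), CAPN3 (1.14), EFEMP2 (1.06), IL11RA (1.03), WDR97 (0.96), AP1G2-AS1 (0.93), ATG9B (0.93), TMEM91 (0.82), COL1A1 (0.65), LAMA5 (0.64), TERT (0.62), CHTF18 (0.57), DDX39B (0.57), GIGYF1 (0.46), HOXB5 (0.34) and HOXB6 (0.26). Most of these genes were named for their fall in WT, so the WT side of each difference had a part in choosing them. The count for N108 minus WT fell from 498 to 147 with offsets for GC content and to 183 without TNF library 3 of WT. Which of these single differences kept their call there was not examined.

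In M3 the response was higher than in WT for CXCL8 (1.63), TNFAIP3 (1.44), NFKBIZ (1.33), CXCL1 (1.13), PDGFB (0.99), ICAM1 (0.86), JUN (0.74), CSF1 (0.70), ZC3H12A (0.66), NUAK2 (0.63), NFKBIA (0.58), ATF3 (0.57), DUSP8 (0.54), MAFF (0.52), SDC4 (0.38) and ZFP36 (0.35). It was lower for DEPP1 (-0.75) and TSC22D3 (-0.51). Of the genes called lower in WT, ATG9B (1.05), RNF31 (0.87), AP1G2-AS1 (0.81) and DDX39B (0.55) gave positive differences in M3. How far line, clone and genotype each enter these differences cannot be told apart.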

How the results depend on the processing

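Main counts were 987 genes called, 387 higher, 600 lower, 99 at least 2-fold in either direction, 498 for N108 minus WT and 60 for M3 minus WT. Leaving out each WT library in turn gave 432 to 1023 called, 181 to 413 higher, 251 to 610 lower, 67 to 111 at least 2-fold, 183 to 714 for N108 minus WT and 14 to 125 for M3 minus WT. The calls in WT stayed within 1.5 times of 987 under the other settings, with 943 for a filter at 1 CPM in 3 libraries, 1143 for DESeq2 and 1147 without a filter, but the filter at 1 CPM left 56 at least 2-fold. For N108 minus WT and M3 minus WT, DESeq2 gave 1105 and 150, no filter 1362 and 265, GC offsets 147 and 230, and GC offsets with the replicate block 194 and 239. The replicate numbers do not pair the libraries (correlations of deviations of same-numbered libraries were -0.0527, 0.0139 and -0.0471), and with the replicate block alone 892 genes were called, 877 of them among the 987. Of the 63 genes at least 2-fold higher, 54 to 63 were still called under each setting, except 47 under the filter at 1 CPM. Over 190 named genes and 14 settings, 2450 values kept direction and call, 150 lost the call, 22 gained it and 18 changed sign. Of 149 named genes called, 37 lost the call without at least 1 library, 32 of them without TNF library 3.

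The sign changes concern 4 genes that were not called in the main fit or any of these, with log2 fold changes near 0. RIPK1 gave -0.0047 under the filter at 1 CPM, -0.011 with the WT libraries alone, -0.010 with GC offsets and -0.0096 with offsets and block, and -0.0037 to 0.028 without a library. IKBKG gave -0.0064 under the filter at 1 CPM, -0.013 with the WT libraries alone, and -0.021 to 0.044 without a library. TNFRSF1A gave 0.013 with GC offsets, 0.013 with offsets and block, and -0.047 to 0.00080 without a library. TNIP1 gave 0.037 with GC offsets, 0.036 with offsets and block, and -0.040 to 0.046 without a library. The cause was not tested. Depth limits calls for genes under 1 CPM. With 3 libraries per group, changes under 1.5-fold in single genes rest on single libraries in many cases.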
